A study of Sus scrofa with 9 samples.

Results

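The nuclear genes of the mitochondrial respiratory chain were read in endothelial cells of the pig coronary artery, which form the inner lining of the vessel that supplies the heart. A gene was included if the array's platform annotation gave its probe set exactly 1 symbol, and that symbol was CYC1 or CYCS or belonged to the NDUF, SDHA to SDHD, UQCR, COX4 to COX8 or ATP5 families. The rule reads names and no signal, though it was set with earlier results of these data known. It found 64 of the 6765 genes that have such a probe set, with 81 probe sets between them, and each gene was represented by its brightest probe set, by mean log2(signal + 16) over all 9 arrays. They comprise 32 complex I subunits, 3 complex I assembly factors, 4 complex II subunits, 2 complex III subunits, cytochrome c, 7 complex IV subunits, 13 complex V subunits, NDUFA4, and ATP5S, which carries the family name but is not a subunit. A gene was tested where its signal exceeded the array's own 40th percentile on 3 or more of the 9 arrays. COX8H, with signals from 3.37 to 69, did not reach that level, so 63 genes were tested.

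The 9 Affymetrix arrays form 3 groups of 3. Passage 1 cells, the controls, were cells from primary culture kept for a week. Passage 4 cells had been passaged weekly from there and are called senescent in the labels. Regenerated cells had regrown in the artery after the endothelium was stripped away, and were scraped off and cultured with no further passage. All groups were harvested without stimulation. The labelling reaction started from 1 ug of RNA for passage 1 and passage 4 arrays, and from 0.5 to 1 ug for regenerated arrays, so input and group cannot be told apart there. The labels give no age or strain, and they do not say whether each array of a group had its own animal or culture. The p-values therefore reflect array-to-array spread alone, and that spread may be technical.

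The respiratory chain sits in the inner mitochondrial membrane. Complex I takes electrons from NADH and complex II takes them from succinate, both pass them through ubiquinone to complex III, cytochrome c carries them to complex IV, and complex IV hands them to oxygen. Complexes I, III and IV pump protons as they work, and complex V, the ATP synthase, lets the protons return and makes ATP. Complex II is the only one whose subunits are all encoded in the nucleus. The others also hold subunits encoded in mitochondrial DNA, and 0 of the 26 symbols searched for those had a probe set here. Endothelial cells are known to draw much of their ATP from glycolysis, with mitochondria also serving as a source of signals. Of 22 chain genes chosen as a reference panel, 14 had a probe set with 1 symbol. UQCRC1, UQCRFS1 and CYC1 were among those with none, so complex III was read through small subunits alone.

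The signals are the submitters' MAS5 values on a linear scale, and all 9 arrays have a trimmed mean (2% off each tail) of 500.1. Differences are given as log2(signal + 16), a scale that understates the change of dim genes. Of 12 endothelial markers, 12 had a probe set and 10 were tested, and their summed signals were 24724 to 30180 in passage 1 arrays, 24262 to 25338 in passage 4 arrays and 23102 to 33680 in regenerated arrays. At passage 4 against passage 1 their median difference was -0.28, with 7 of 10 negative, and NOS3, the endothelial nitric oxide synthase, was lower (-0.97, limma adjusted p 0.045). In regenerated cells against passage 1 the median was -0.20, ENG was higher (1.92, 0.0153) and CLDN5 lower (-1.62, 0.0134), and ENG was also lower at passage 4 than in regenerated cells (-1.63, 0.0177). CDH5, the endothelial cadherin, ranged from 8524 to 11246 across arrays, while the probe sets of VWF (22.8 to 52.1) and KDR (0.798 to 23.6) were dim in every group. Summed signals of 7 fibroblast markers were 1065 to 3208 in passage 1 arrays, 1431 to 1898 in passage 4 arrays and 3835 to 5916 in regenerated arrays. Of 6 tested, 6 were positive in regenerated cells against passage 1 (median 1.06), and 2 were higher by an adjusted p under 0.05. THY1, higher there, exceeded the filter level in only 1 passage 1 array. At passage 4 against passage 1, 5 of 6 were positive (median 0.49) and 0 passed. Against regenerated cells, 4 of 6 were negative at passage 4 (median -0.69), and 2 were lower. Summed signals of 7 smooth muscle markers ran from 17274 to 36453, 17248 to 31963 and 32286 to 45348 in passage 1, passage 4 and regenerated arrays. Of 5 tested, 4 were positive in regenerated cells against passage 1 (median 0.89), and 1 was higher by that threshold. All 5 were negative at passage 4 against regenerated cells (median -0.44), and 1 was lower. Summed signals of 6 leukocyte markers stayed between 107 and 307 and those of 7 cardiac and skeletal muscle markers between 84 and 143, with 0 and 1 of them tested. The part of these markers in the results was not tested. In bulk RNA, fewer cells of a type and less RNA per cell cannot be told apart.

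Some arrays also differed in RNA quality and labelling. The difference between 5′ and 3′ probe sets of Gapdh was -0.31, -0.78 and -0.99 in regenerated arrays 1, 2 and 3, and between -0.18 and 0 in the other 6. Actin gave another order. Its 5′ to 3′ difference ran from -0.54 to -0.35 at passage 4, with passage 1 array 1 next at -0.67. Passage 1 arrays 3 (-1.37) and 2 (-1.71) lay close to regenerated array 1 (-1.65). The lowest were regenerated arrays 2 (-2.16) and 3 (-2.78). Passage 1 and passage 4 were thus alike by Gapdh but not by actin, and its part in their comparison was not tested. The same difference of the dap and thr spike-in controls divided the arrays into 2 labelling kinds at a gap of 2.16, against a next gap of 0.32. Passage 1 array 1 and all passage 4 arrays made one kind, and passage 1 arrays 2 and 3 and all regenerated arrays the other. Passage 4 and regenerated cells thus share no kind, and a difference between them can be set against it through the passage 1 arrays alone. Respiratory chain calls between passage 4 and regenerated cells are therefore also given with the kind as a block and without regenerated arrays 2 and 3. The second of these fits leaves 1 regenerated array. The marker calls above are not given in these fits.

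Passage 4 was first compared with passage 1, the comparison of cells called senescent with controls. None of the 63 tested respiratory chain genes passed the threshold, an adjusted p under 0.05 in limma with Benjamini-Hochberg adjustment over all 15299 tested probe sets. Without adjustment, 3 genes had a p under 0.05. Over all probe sets, 2.71% passed as higher and 2.08% as lower at passage 4. Of the 63 genes, 36 had a positive and 27 a negative difference, with a median of 0.035, beside 0.036 over all tested probe sets. The median moves across 0 with the scaling, to -0.012 after median centring. The intervals were narrow. In 62 of 63 genes (98.4%) the 95% interval lay within 1 log2 unit of no change on both sides, against 62% of all tested probe sets and 84.5% of the brightest 25% of them. A difference beyond 0.5 log2 was seen in 2 genes (3.17%), NDUFV1 and ATP5I, against 26.6% of all probe sets and 14.7% of the brightest 25%. In 7 genes all 3 passage 4 arrays lay above all 3 passage 1 arrays, and in 1 gene below. Over all probe sets these shares were 15.3% and 9.61%.

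**Figure D1:**
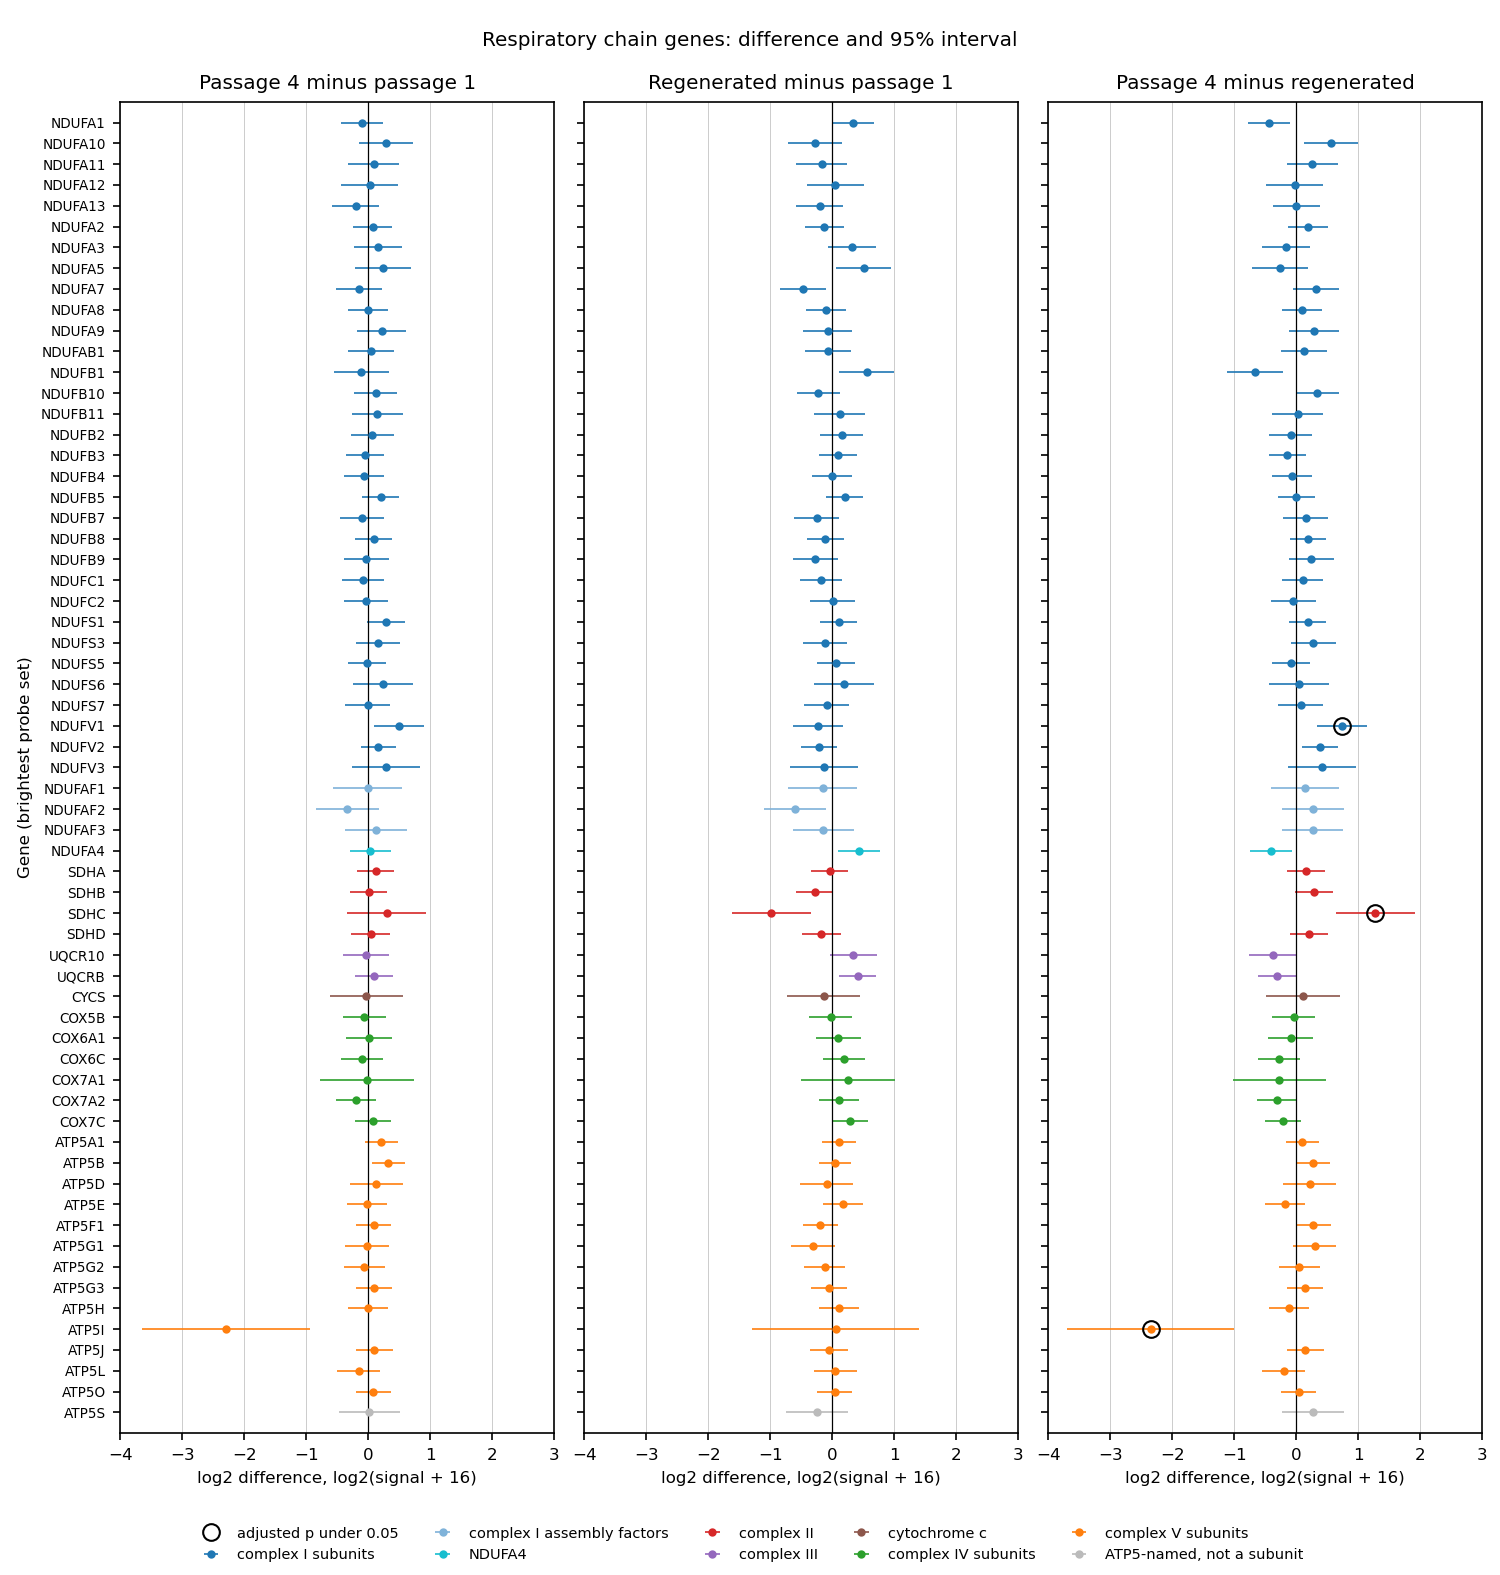
Each row is 1 tested respiratory chain gene, and each panel is 1 comparison, with the log2 difference on the x axis, the limma 95% interval as a bar and colours for the complexes; rings mark an adjusted p under 0.05. Most genes lie within 0.5 log2 of 0 in every panel, and the 3 rings, on NDUFV1, SDHC and ATP5I, are all in the comparison of passage 4 with regenerated cells.

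Complex I was read through 32 subunits, of which 19 had a positive and 13 a negative difference at passage 4, with a median of 0.067. Its differences ran from -0.20 for NDUFA13, an accessory subunit of the membrane arm, to 0.50 for NDUFV1. NDUFV1 is the core subunit that binds NADH and its flavin cofactor. Its signals were 1231, 1018 and 1048 at passage 1 and 1690, 1329 and 1684 at passage 4, so the groups did not overlap. The means were 1099 ± 115 and 1568 ± 207 (SD, n = 3 arrays each). The difference of 0.50 (SE 0.19, 95% interval 0.098 to 0.906) had an adjusted p of 0.155 in limma. NDUFS1, the largest iron-sulfur subunit of the same arm, stood at 1758, 1627 and 1791 and then at 2030, 2166 and 2133. These groups did not overlap either, and the difference of 0.29 (SE 0.14) had an adjusted p of 0.286.

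Complex I is built from modules, and these were set side by side. The N module takes electrons from NADH, the Q module passes them to ubiquinone, and the membrane arm pumps protons. All 7 tested N module genes (NDUFV1, NDUFV2, NDUFV3, NDUFS1, NDUFS6, NDUFA2 and NDUFA12) had a positive difference, from 0.027 to 0.50, with a median of 0.24, where 53.9% of all tested probe sets were positive. None of the 7 passed. The 4 Q module genes had a median of 0.074, with NDUFA5 at 0.24 and NDUFA7 at -0.14. The 21 genes listed here under the membrane arm had a median of -0.004, with 10 positive and 11 negative. That list included NDUFA9 (0.22) and NDUFAB1 (0.050), and another assignment of them was not tried. The assembly factors NDUFAF1, NDUFAF2 and NDUFAF3 help put complex I together without staying in it. Their differences were -0.008, -0.34 and 0.13.

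In complex II all 4 genes had a positive difference by their brightest probe sets, with a median of 0.078. SDHA, the flavoprotein that oxidises succinate, was at 0.12, and SDHB, the iron-sulfur subunit, at 0.007. SDHC and SDHD, the membrane anchors, were at 0.30 and 0.037. The second probe sets of SDHA and SDHB were at 0.93 and -0.34 (limma adjusted p 0.341 and 0.451). In SDHC all passage 4 arrays lay above all passage 1 arrays, at 1194 to 1367 against 911 to 1162. In complex III UQCRB and UQCR10, both small supernumerary subunits, were at 0.098 and -0.035. Cytochrome c, from CYCS, was at -0.028, with signals of 1322 to 1820 at passage 1 and 1287 to 1959 at passage 4. The 6 tested complex IV genes had a median of -0.040, from -0.20 for COX7A2 to 0.076 for COX7C. COX6A1, the form of its subunit found outside muscle, was at 0.012 here, at 0.10 in regenerated cells against passage 1 and at -0.089 for passage 4 against regenerated cells. COX7A2 is the widely expressed isoform of its subunit. COX7A1, the heart and muscle isoform, was dim, at 45.8 to 54.9 in passage 1 arrays, 29.3 to 89.5 in passage 4 arrays and 46.9 to 86 in regenerated arrays. NDUFA4, named for complex I and since assigned to complex IV, was at 0.035.

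The 13 complex V genes had a median of 0.084, with 7 positive and 6 negative. ATP5A1 and ATP5B, for the alpha and beta subunits that form the catalytic head, both had passage 4 arrays above all passage 1 arrays. ATP5B stood at 8361, 8156 and 7132 at passage 1 and at 10063, 9588 and 9859 at passage 4. Its difference of 0.32 (SE 0.12) had an adjusted p of 0.162, and of 0.0478 after quantile normalization. With the labelling kind as a block it was 0.23 (adjusted p 0.643). ATP5A1 was at 0.21 (adjusted p 0.398 in limma). The genes for the c ring, through which protons pass, were at -0.018 for ATP5G1, -0.067 for ATP5G2 and 0.092 for ATP5G3.

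ATP5I stood apart from the other 62 genes by the size of its difference. It encodes subunit e, a small membrane subunit found where ATP synthases pair into dimers. Its signals were 1807, 4413 and 3023 at passage 1 and 1701, 669 and 161 at passage 4. The 3 passage 4 arrays lay below all passage 1 arrays, but array 1 was close to the lowest passage 1 array. The means were 3081 ± 1304 and 844 ± 785, a 3.65-fold ratio. The log2 difference was -2.29 (SE 0.62, 95% interval -3.65 to -0.94), with an adjusted p of 0.0575 in limma. The adjusted p was 0.0148 without passage 4 array 1 (difference -3.06), 0.0358 without passage 1 array 1 (-2.63) and 0.0472 with a pseudocount of 64. It was 0.116 without passage 4 array 3, where the difference was -1.42. With the labelling kind as a block, which leaves passage 1 array 1 as the control of the passage 4 arrays, it was -1.62 (adjusted p 0.462). The highest passage 4 array exceeded the lowest by 10.6 times in ATP5I, where the next widest gene, COX7A1, had a ratio of 3.05 and the median gene 1.18. The second ATP5I probe set was dim in all arrays, from 4.22 to 17.8, and was not tested.

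**Figure D2:**
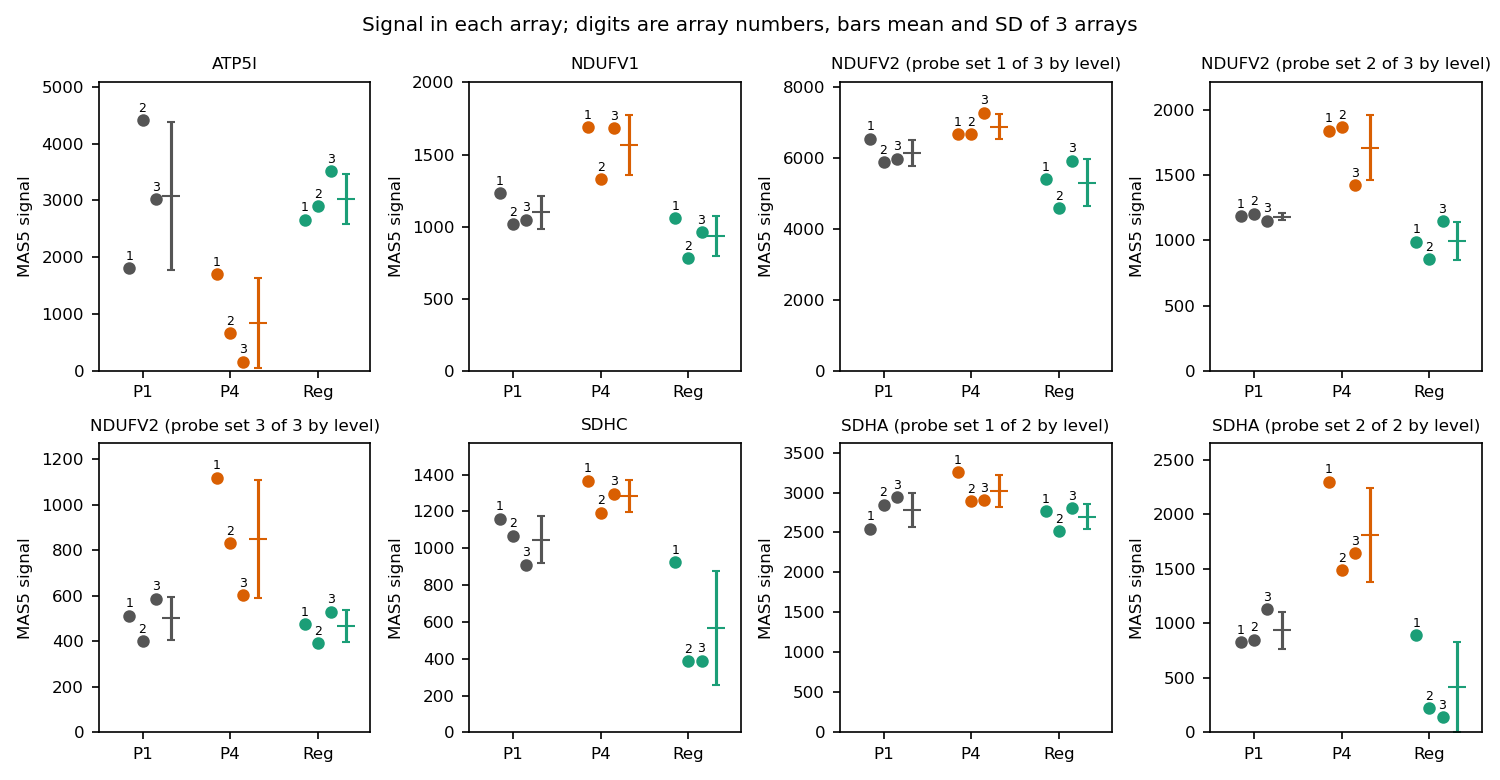
MAS5 signal on a linear y axis in each array of passage 1 (P1), passage 4 (P4) and regenerated (Reg) cells for ATP5I, NDUFV1, SDHC and the probe sets of NDUFV2 and SDHA; points are arrays with their number, and bars are the mean and SD of 3 arrays. The passage 4 arrays of ATP5I spread from 161 to 1701, and regenerated arrays 2 and 3 of SDHC lie at 387 and 390, under regenerated array 1 at 924.

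The regenerated cells were next compared with passage 1, to ask how cells that regrew in the artery differ from controls. This comparison shares the passage 1 arrays with the first. Again 0 of the 63 genes passed in limma, and 7 had an unadjusted p under 0.05. Over all probe sets 2.98% passed as higher and 2.51% as lower in regenerated cells. Positive differences numbered 28 and negative ones 35, with a median of -0.052 beside -0.006 over all probe sets. The 95% interval lay within 1 log2 unit on both sides in 59 genes (93.7%), against 59% of all probe sets and 81.5% of the brightest 25%. In 8 genes all regenerated arrays lay above all passage 1 arrays (12.3% of all probe sets did), and in 4 genes below (10.8%). The first 8 were NDUFA1, NDUFA3, NDUFA4, NDUFA5, NDUFB1, NDUFB5, NDUFS1 and UQCRB, of which NDUFA1 has a dimmer probe set with a negative difference. The other 4 were NDUFA7, NDUFAF2, NDUFB10 and SDHB.

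The complexes differed in sign here. Complex I had a median of -0.082, with 13 of 32 genes positive. Its extremes were both accessory subunits. NDUFB1, of the membrane arm, stood at 6077, 6065 and 3812 at passage 1 and at 6951, 8397 and 7638 in regenerated cells, a difference of 0.55 (SE 0.20, limma adjusted p 0.136). NDUFA7, of the Q module, stood at 3106, 2618 and 2518 and then at 1884, 1730 and 2364, a difference of -0.47 (SE 0.17, adjusted p 0.13). The groups did not overlap in either gene. NDUFA5, also of the Q module, was at 0.51, with 680 to 699 at passage 1 and 875 to 1229 in regenerated cells. The N module had a median of -0.13 and the membrane arm of -0.071. The 3 assembly factors were all negative, and NDUFAF2 had the widest difference of them, -0.61 (adjusted p 0.147).

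All 4 complex II genes were negative, with a median of -0.23. SDHC had the largest difference. Its signals were 1162, 1070 and 911 at passage 1 and 924, 387 and 390 in regenerated cells, so regenerated array 1 lay within the passage 1 range and arrays 2 and 3 well under it. The difference was -0.98 (SE 0.29, limma adjusted p 0.0742). Without regenerated array 1 it was -1.39 (adjusted p 0.00323), and without arrays 2 and 3 it was -0.17 (adjusted p 0.862). Arrays 2 and 3 are those with the lowest Gapdh 5′ to 3′ difference, and its part in the result was not tested. SDHB stood at 4268, 4420 and 4916 at passage 1 and at 4085, 3403 and 3694 in regenerated cells. Those groups did not overlap, with a difference of -0.28 (adjusted p 0.258). The second SDHB probe set overlapped between groups, at 1490 to 1947 and 1279 to 2079, with a difference of -0.005.

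Both complex III genes were positive, with a median of 0.38. UQCRB stood at 4961, 5643 and 4930 at passage 1 and at 5969, 7963 and 6817 in regenerated cells, a difference of 0.41 (SE 0.14, limma adjusted p 0.111). UQCR10 was at 0.34. Both were high in regenerated arrays 2 and 3, and without those arrays UQCRB was at 0.21 and UQCR10 at -0.016. Complex IV had a median of 0.15, with 5 of 6 genes positive. The highest was COX7C at 0.28, and COX5B, at -0.023, was the exception. Complex V had a median of 0.042, which was -0.028 after quantile normalization, with differences from -0.32 for ATP5G1 to 0.17 for ATP5E. ATP5E encodes the epsilon subunit of the central stalk. ATP5I was at 0.056, with regenerated signals of 2660, 2902 and 3515 inside the passage 1 range. NDUFA4 stood at 7115, 7812 and 6935 at passage 1 and at 7998, 9937 and 12051 in regenerated cells. Its regenerated arrays lay above all passage 1 arrays, with a difference of 0.44 (SE 0.15, adjusted p 0.12). The adjusted p of NDUFA4 was 0.0345 without regenerated array 1, and without arrays 2 and 3 the difference was 0.14.

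Medians over each complex array by array showed how far single arrays carried these values. Relative to the passage 1 mean of each gene, complex II lay at -0.16, -0.33 and -0.14 in regenerated arrays 1, 2 and 3, under all 6 other arrays (0.001 to 0.17). Complex III lay at 0.096, 0.56 and 0.47 in the regenerated arrays, and from -0.078 to 0.14 in the others. Complex IV lay at -0.024 and 0.003 in regenerated arrays 1 and 2 and at 0.36 in array 3. Complex I lay at -0.077, -0.10 and 0.086 and complex V at -0.083, -0.13 and 0.23, both highest in array 3. Without regenerated arrays 2 and 3, the medians of complexes II, III and IV against passage 1 were -0.16, 0.096 and -0.024.

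**Figure D3:**
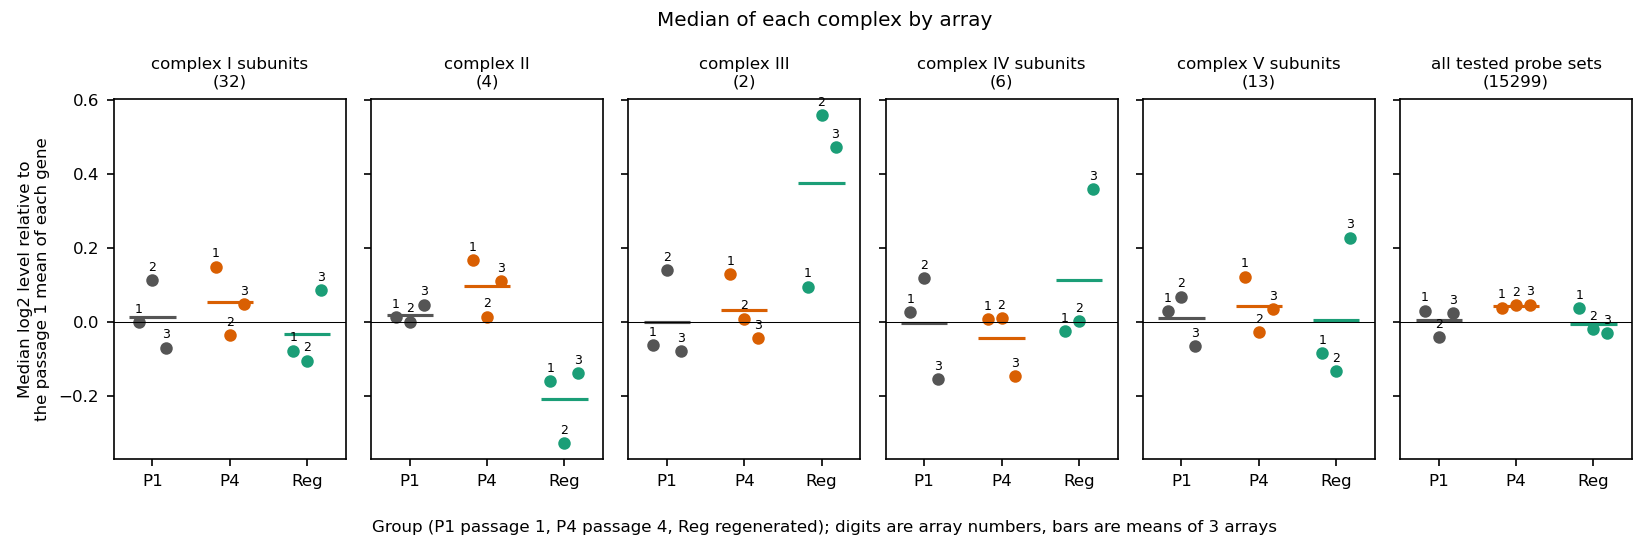
Median log2 level of the tested genes of each complex in each array, relative to the passage 1 mean of each gene, with all 15299 tested probe sets in the last panel; points are arrays with their number, lines are means of the 3 arrays of passage 1 (P1), passage 4 (P4) and regenerated (Reg) cells, and the panel titles give the number of genes. Complex II is lowest in the 3 regenerated arrays, complex III is highest in regenerated arrays 2 and 3, and the other complexes overlap between groups.

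Passage 4 was then compared with regenerated cells, which also tests whether the differences of both groups from passage 1 are unlike, since the shared control cancels. Of the 63 genes 3 passed in limma, NDUFV1 and SDHC as higher and ATP5I as lower at passage 4. Over all probe sets, 8.14% passed as higher and 4.35% as lower, so the genes' shares were not above the background. In 14 genes all passage 4 arrays lay above all regenerated arrays (20.1% of all probe sets), and in 4 genes below (16.1%). The median difference was 0.10, beside 0.008 over all probe sets, and 39 genes were positive and 24 negative. A difference beyond 0.5 log2 was seen in 5 genes (7.94%), against 34.9% of all probe sets and 22.3% of the brightest 25%. Those 5 were NDUFV1, SDHC, ATP5I, NDUFA10 and NDUFB1.

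NDUFV1 stood at 1690, 1329 and 1684 at passage 4 and at 1059, 782 and 963 in regenerated cells. The groups did not overlap, and the ratio of the means was 1.68. The log2 difference was 0.74 (SE 0.19, 95% interval 0.334 to 1.14), with an adjusted p of 0.0233 in limma. The difference was 0.68 without passage 4 array 1 (adjusted p 0.0885), 0.68 without passage 4 array 3 (0.0966), 0.62 without regenerated array 2 (0.0907) and 0.77 without regenerated array 3 (0.0665). With the labelling kind as a block it was 0.49 (0.441), and without both regenerated arrays 2 and 3 it was 0.55 (0.364).

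SDHC stood at 1367, 1194 and 1297 at passage 4, above the regenerated values of 924, 387 and 390. The ratio of the means was 2.27, and the log2 difference was 1.28 (SE 0.29, 95% interval 0.641 to 1.92), with an adjusted p of 0.0155 in limma. Leaving out regenerated array 1 raised it to 1.68 (adjusted p 0.000826). It was 1.07 without regenerated array 2 (0.0708), 1.08 without regenerated array 3 (0.0716), 1.23 without passage 4 array 1 (0.0555) and 1.27 without passage 4 array 3 (0.0523). Without both regenerated arrays 2 and 3 the difference was 0.47 (0.427), and with the labelling kind as a block 1.05 (0.323).

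ATP5I stood at 1701, 669 and 161 at passage 4, all below the regenerated values of 2660, 2902 and 3515. The log2 difference was -2.35 (SE 0.62, 95% interval -3.70 to -0.998), with an adjusted p of 0.0289 in limma. Leaving out passage 4 array 1 gave -3.12 (0.00958) and leaving out passage 4 array 3 gave -1.48 (0.0532). It was -2.46 without passage 4 array 2 (0.0665), -2.38 without regenerated array 2 (0.088) and -2.24 without regenerated array 3 (0.0976). With both of these regenerated arrays out it was still -2.18, but no longer past the threshold (0.361), and with the labelling kind as a block it was -1.34 (0.54).

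By complex, the medians of passage 4 against regenerated cells were 0.099 for complex I, 0.25 for complex II, -0.34 for complex III, -0.24 for complex IV and 0.10 for complex V. All 4 complex II genes were positive, and the differences of SDHA, SDHB and SDHD were 0.16, 0.29 and 0.21. This holds for the brightest probe sets, as the second SDHB probe set was at -0.33 (limma adjusted p 0.346). Both complex III genes and all 6 tested complex IV genes were negative. UQCR10 was at -0.38 and UQCRB at -0.31, and complex IV ran from -0.31 for COX7A2 to -0.040 for COX5B. Without regenerated arrays 2 and 3 the medians of complexes III and IV were -0.064 and -0.056, while that of complex II was 0.25. Signs of these 5 medians were the same after median centring and after quantile normalization.

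Within complex I the N module had a median of 0.20, with 6 of 7 genes positive, where 50.7% of all probe sets were. In 5 of the 7 all passage 4 arrays lay above all regenerated arrays, which 20.1% of all probe sets did. NDUFV2, the iron-sulfur partner of NDUFV1, was at 0.38 (limma adjusted p 0.0827) and NDUFV3 at 0.42 (0.301). The Q module had a median of 0.18 and the membrane arm of 0.027. The lowest complex I gene was NDUFB1, with 6007, 4615 and 4014 at passage 4 under 6951, 8397 and 7638 in regenerated cells. Its difference of -0.67 (SE 0.20) had an adjusted p of 0.0534 in limma. NDUFB1 crossed the threshold in several other fits, with 0.0488 after median centring, 0.0496 after quantile normalization and 0.0234 without passage 1 array 3. It did not cross it without passage 4 array 2 or 3, or without any single regenerated array. With the labelling kind as a block its difference stayed negative, but the SE rose to 0.361 and the adjusted p to 0.192. In complex V ATP5B was at 0.28, with 0.157 as its adjusted p and 0.0237 after quantile normalization. With the kind as a block ATP5B was at 0.14 (0.776). ATP5I was the 1 complex V gene whose difference lay beyond 0.5 log2.

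Of the 64 genes, 14 have more than 1 probe set and 10 have more than 1 that was tested. Among those 10 the tested probe sets did not all have the same sign in 5 genes between passage 4 and passage 1 (ATP5L, NDUFA1, NDUFAF1, NDUFB3 and SDHB), in 2 between regenerated cells and passage 1 (ATP5S and NDUFA1) and in 4 between passage 4 and regenerated cells (ATP5L, ATP5S, NDUFA1 and SDHB). NDUFA1, a small membrane arm subunit, was at -0.44 for passage 4 against regenerated cells by its brighter probe set and at 1.29 by the dimmer one (limma adjusted p 0.093 and 0.174). Against passage 1 its regenerated cells were at 0.34 and -1.09. The dimmer NDUFA1 probe set spread from 586 to 4003 within passage 4. In SDHA the brighter probe set stood at 2546 to 2945 in passage 1 arrays, 2896 to 3253 in passage 4 arrays and 2519 to 2804 in regenerated arrays, and it differed little. The dimmer one stood at 827, 851 and 1131 at passage 1, at 2297, 1485 and 1645 at passage 4 and at 889, 221 and 140 in regenerated cells. Its difference of passage 4 from regenerated cells was 2.48 (SE 0.50, limma adjusted p 0.00896), against 0.16 in the brighter one. It was 2.72 with the labelling kind as a block (adjusted p 0.172) and 0.99 without regenerated arrays 2 and 3 (0.211). As in SDHC, regenerated array 1 lay with the passage 1 arrays, and arrays 2 and 3 far below. In NDUFV2 all 3 probe sets had the same sign. The second by brightness stood at 1842, 1870 and 1426 at passage 4 and at 991, 854 and 1146 in regenerated cells, a difference of 0.77 (adjusted p 0.0168). With the kind as a block it was 0.76 (0.241) and without regenerated arrays 2 and 3 it was 0.77 (0.213). Its call also ended without passage 4 array 1 (0.068) or 2 (0.0714) or regenerated array 2 (0.0677). The third was at 0.81 (adjusted p 0.0555). The dimmest probe set of ATP5L, for subunit g, which lies next to subunit e in the dimer, stood at 29.4, 31.7 and 39.6 at passage 1 and at 78.3, 94.6 and 110 at passage 4. None of its passage 1 arrays exceeded the filter level (37.2 to 47.1 there), so it was tested only through the groups where it was brighter, and its difference is not given as a result. The other ATP5L probe sets were at 0.50 and, for the brightest, -0.15. These dimmer probe sets were picked out after their values were seen.

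The spread between arrays of a group was small for most of the 63 genes. The highest array exceeded the lowest by a median of 1.22 times within passage 1, 1.18 within passage 4 and 1.32 among regenerated arrays. It was under 1.5 times in 57, 57 and 52 genes. The widest gene was ATP5I at passage 1 (2.44) and at passage 4 (10.6), and SDHC in regenerated cells (2.39), followed there by CYCS (2.21). CYCS stood at 2087, 1462 and 944 in the regenerated arrays and overlapped the other groups. By mean signal, 53 of the 63 genes were among the brightest 25% of tested probe sets, which bears on how narrow their intervals were beside those of all probe sets.

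Other mitochondrial genes were read from 6 further lists with 128 tested genes. Of these, 1.56% were higher and 0% lower at passage 4 than at passage 1 (2.71% and 2.08% of all probe sets). In regenerated cells against passage 1, 0% were higher and 2.34% lower (2.98% and 2.51% of all). At passage 4 against regenerated cells 8.59% were higher and 1.56% lower (8.14% and 4.35% of all), so the calls described next came at about the rate of all probe sets or below it. Of 18 tested assembly factors and small accessory proteins outside the naming rule, 0 passed between passage 4 and passage 1, with 1 at an unadjusted p under 0.05. In regenerated cells 2 were lower than at passage 1. ACAD9, needed to assemble complex I, stood at 747, 795 and 876 at passage 1 and at 463, 319 and 447 in regenerated cells, a difference of -0.96 (limma adjusted p 0.0228). CHCHD4, which folds imported intermembrane proteins, was at -1.20 (adjusted p 0.0451). At passage 4 CHCHD4 (1.28) and TACO1 (1.20), a translation activator of a complex IV subunit, were higher than in regenerated cells. USMG5, a further small subunit bound to the ATP synthase dimer, was lower than in regenerated cells, at 9014, 8183 and 8015 against 11101, 11642 and 12003, a difference of -0.46 (adjusted p 0.0197).

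In the tricarboxylic acid cycle and pyruvate dehydrogenase list, 2 of 20 tested genes were higher at passage 4 than at passage 1. PDHB, for a subunit of pyruvate dehydrogenase, stood at 2655, 2480 and 2459 at passage 1 and at 4044, 3722 and 4079 at passage 4, a difference of 0.64 (limma adjusted p 0.0207). PDK4, a kinase that switches pyruvate dehydrogenase off, stood at 552, 572 and 831 and then at 1705, 5036 and 1104, a difference of 1.70 (adjusted p 0.0452). The passage 4 values of PDK4 spread widely, and the groups overlapped in neither gene. The call of PDHB ended without passage 1 array 2 (0.0787) or without any 1 passage 4 array (0.0548 to 0.104). The call of PDK4 ended in 8 of the 9 fits that left out 1 array (0.0522 to 0.151), all but the one without passage 4 array 3. With the labelling kind as a block neither passed, at 0.57 for PDHB (0.201) and 1.91 for PDK4 (0.202), and with no intensity trend PDHB had 0.0572 and PDK4 0.0725. Against regenerated cells, IDH3G was higher (0.61) and OGDH lower (-1.46) at passage 4. OGDH, the first component of the 2-oxoglutarate dehydrogenase, stood at 483, 461 and 318 at passage 4 and at 1249, 944 and 1343 in regenerated cells (adjusted p 0.0101). Its difference ran from -1.61 to -0.385 over the alternative fits.

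Of 6 tested regulators of mitochondrial biogenesis, TFB1M, which modifies the mitochondrial ribosomal RNA, was higher at passage 4 than in regenerated cells (0.90, limma adjusted p 0.0305). PPARGC1A, a coactivator known to raise respiratory chain genes in muscle and fat, was dim, at 0.869 to 17.6, and was not tested. Of 7 carriers and channels, SLC25A5, an ADP/ATP carrier that exports the ATP made by complex V, stood at 7198, 7002 and 7693 at passage 4 and at 4870, 4661 and 4961 in regenerated cells, a difference of 0.59 (adjusted p 0.00842). All 7 were positive in this comparison. Of 19 tested import translocases 3 were higher at passage 4 than in regenerated cells, TOMM22 (0.55), TIMM50 (0.98) and TOMM70. TOMM70 was dim, at 201 to 268 against 18.4 to 73.8, and only 1 of its 3 regenerated arrays exceeded the filter level, so the size of its difference is uncertain.

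The 58 mitochondrial ribosomal protein genes had a median of -0.21 in regenerated cells against passage 1. Of these, 49 were negative and 9 positive, where 49.4% of all tested probe sets were positive. Only MRPL45 (-0.67) passed in limma (adjusted p 0.0479). Against regenerated cells, passage 4 had a median of 0.27 over them, and MRPS26 (0.71), MRPL37 (0.79) and MRPL45 (0.83) were higher. Between passage 4 and passage 1 their median was 0.053, and 0 passed, with 3 at an unadjusted p under 0.05. Respiratory chain genes in the same order had medians of -0.052, 0.10 and 0.035. The ribosomal protein medians were not read with the labelling kind as a block or without regenerated arrays 2 and 3. All 13 calls of these lists between passage 4 and regenerated cells ended with the labelling kind as a block. Most calls over all probe sets ended with it as well. The block widened the SE in this comparison, from 0.62 to 1.09 for ATP5I and from 0.29 to 0.53 for SDHC. The part of labelling in the 13 calls was not tested. Leaving out 1 array ended from 0 to 9 of the 13, most without passage 4 array 3. Of the 3 calls between regenerated cells and passage 1, all 3 ended without regenerated array 2 or 3 or without passage 1 array 2 or 3. With the labelling kind as a block that of MRPL45 ended (0.0749), while ACAD9 (-1.02, 0.0308) and CHCHD4 (-1.40, 0.0332) still passed.

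**Figure D4:**
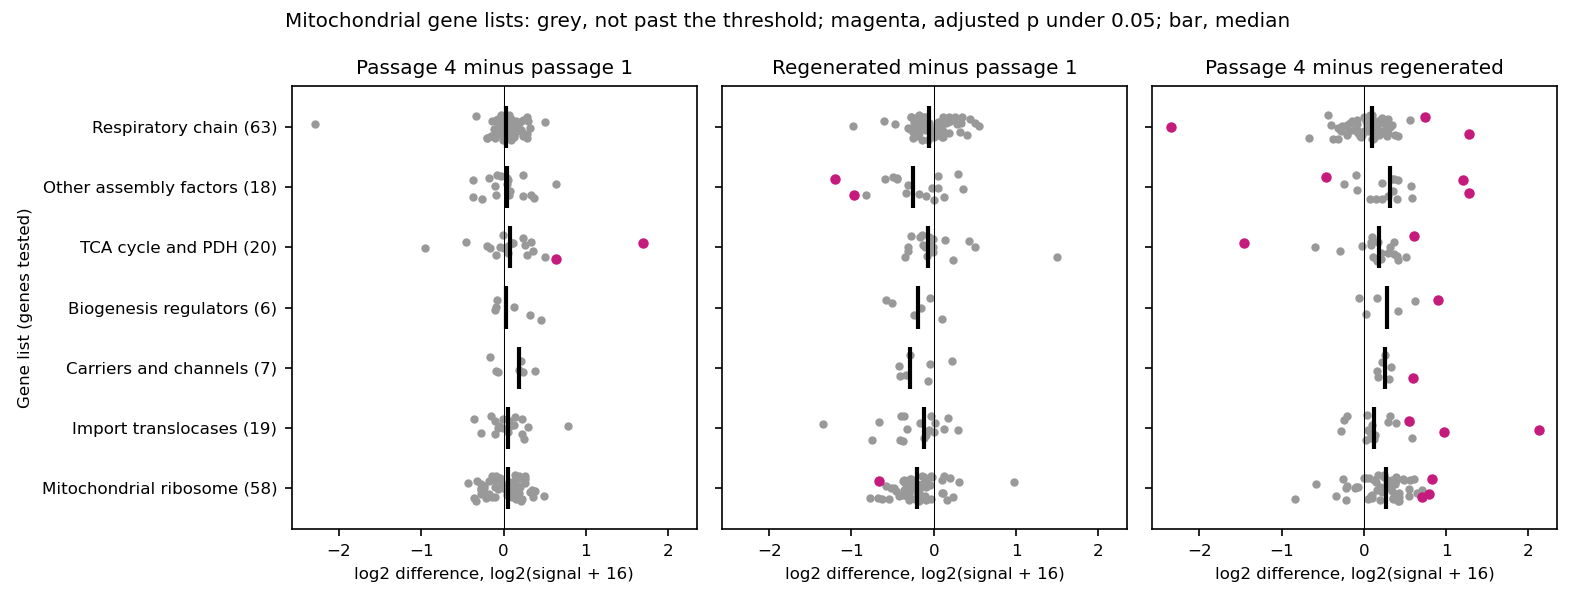
Log2 difference, on the x axis, of every tested gene of the respiratory chain and of 6 other mitochondrial lists in the 3 comparisons; points are genes, magenta points have an adjusted p under 0.05, black bars are medians, and numbers in brackets count the genes. The respiratory chain median lies near 0 in each panel, and the ribosomal protein median lies at -0.21 and 0.27 in the panels with regenerated cells.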

How the data were processed

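RNA of 9 samples was read on 9 Affymetrix pig arrays. The deposited values are intensities on a linear scale, named MAS5 by the submitters' processing notes. For the MAS5 version, the target of its scaling and the detection calls, nothing is given in the sources used here. The values were not normalized further. Of 24123 probe sets, 124 controls were left out and 15299 were tested. In the platform annotation 10099 probe sets had 1 symbol, 198 had several and 13826 had none. A probe set with several symbols that resembled a member was left out. The Entrez identifiers of all 64 genes were found in the RefSeq gene table of Sscrofa11.1, and 0 symbols changed.

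All 9 arrays were fitted together on log2(signal + 16) in limma 3.58.1 under R 4.3.3 (lmFit, eBayes with an intensity trend, 6 residual and 5.65 prior degrees of freedom), with two-sided tests and Benjamini-Hochberg adjustment within each comparison. The median SE of a log2 difference was 0.266. The fit was tested on simulated data. The number of arrays limits the precision.

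Members and lists were chosen with earlier results of these data known. Named genes were those past the threshold, the extremes of each complex, a fixed panel, and up to 4 called genes of each other list. Further genes named for arrays that did not overlap were picked after their values were seen. Alternatives changed the pseudocount, filter, scaling, trend, arrays fitted, blocks, probe set rule and single arrays. The fit without regenerated arrays 2 and 3 was added after seeing the data.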

Additional observations from a re-analysis of the deposited data

Results flagged for a closer look

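Of the 63 tested respiratory chain genes, 3 differed between passage 4 and regenerated cells in limma, where 12.5% of all probe sets did. This comparison tests whether both groups' differences from passage 1 are unlike. With the labelling kind as a block 0 of the 63 passed, and most calls over all probe sets ended as well. Without that block the log2 difference was -2.35 for ATP5I, 0.74 for NDUFV1 and 1.28 for SDHC. The same test picked out 13 of the 128 tested genes of the other mitochondrial lists, or 10.2%, against 12.5% of all probe sets. Higher at passage 4 were CHCHD4 (1.28), TACO1 (1.2), TFB1M (0.9), IDH3G (0.61), SLC25A5 (0.59), TOMM22 (0.55), TIMM50 (0.98), TOMM70 (2.12), MRPS26 (0.71), MRPL37 (0.79) and MRPL45 (0.83). Lower at passage 4 were OGDH (-1.46) and USMG5 (-0.46). The value for TOMM70 is of uncertain size, since 1 of its 3 regenerated arrays exceeded the filter level. Its difference was 1.47 with a pseudocount of 64 and 2.54 with a pseudocount of 1. Over all alternatives the lowest was 0.61. The groups have 3 arrays each, too few to look for single arrays that stand apart by a formal rule.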

How the results depend on the processing

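Against 733 probe sets called between passage 4 and passage 1, 150 were called with the labelling kind as a block and 244 to 1403 with 1 array left out. Against 840 between regenerated cells and passage 1, 479 were called with the 6 arrays compared alone and 291 to 1238 with 1 array left out. Against 1912 between passage 4 and regenerated cells, 35 were called with the kind block and 895 to 2406 with 1 array left out. Without both regenerated arrays 2 and 3 these last 2 counts were 37 and 51.

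Respiratory chain genes called between passage 4 and passage 1 numbered 1, against 0, with a pseudocount of 64, after quantile normalization and with probe sets counted one by one, and 0 to 1 with 1 array left out. Counted one by one, the probe set was the dim one of ATP5L. Between regenerated cells and passage 1 they numbered 0 to 2 with 1 array left out, and 0 in the other alternatives. Between passage 4 and regenerated cells they numbered, against 3, 6 after quantile normalization, 5 with the mean over a gene's probe sets, 5 with probe sets one by one, 0 with the kind block, 0 without both regenerated arrays, and 0 to 5 with 1 array left out. The cause was not tested.

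The complex II medians with the mean over probe sets were 0.167, -0.485 and 0.744 (passage 4 against passage 1, regenerated against passage 1, passage 4 against regenerated), and the last was 0.381 with the kind block. Without both regenerated arrays the complex III medians were 0.096 against passage 1 and -0.064 for passage 4 against regenerated cells, where complex IV was at -0.056. The complex V median of passage 4 against passage 1 ran from 0.001 to 0.098 with 1 array left out. Over these medians and all alternatives, 388 values moved by less than the spread between arrays and 8 by more. The 388 include values that could not move, so the tally is no measure of stability. A difference of group means stays the same without the intensity trend, with the compared arrays alone and with the array number as a block. It also stays the same without an array of the group not compared.

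With the array number as a replicate block, 549, 554 and 1626 probe sets and 0, 0 and 4 respiratory chain genes were called in the 3 comparisons in that order. The added gene was NDUFB1 (adjusted p 0.0487). Same-numbered arrays deviated together with correlations of -0.138 to 0.186, so the numbers were not taken to pair the arrays. With 3 arrays a group the median SE of a log2 difference was 0.266, which limits what can be told apart. The fit without both regenerated arrays was chosen after seeing the data.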
